A study of Mus musculus with 12 samples.

Results

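The comparison described here is the regional one within tamoxifen-treated mouse embryos: RNA from the anterior palate against RNA from the posterior palate, with every gene symbol in the count files taken as a candidate. It uses 6 of the 12 libraries of the study, 3 per region. Of 24391 gene symbols, 15958 had enough counts to be tested. All 12 libraries came from C57BL/6 embryos at E13.5, a stage at which the palatal shelves are still growing. The 4 groups are anterior palate under tamoxifen, posterior palate under tamoxifen, and the same parts from untreated controls, each with 3 libraries. Tamoxifen is a drug that binds oestrogen receptors, and the title of the study names cleft palate as its outcome in mice. The labels used here name no genetic alteration in any group and do not give the dose or time of treatment. They do not say whether the libraries of a group came from separate embryos or litters, so p-values measure only the spread between these samples, which may be technical.

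The secondary palate forms from paired shelves that grow out of the maxillary processes, rise above the tongue and fuse in the midline. Its anterior part becomes the bony hard palate and its posterior part the muscular soft palate. The parts are known to carry different transcription factors: Shox2 and Msx1 in the anterior mesenchyme, Meox2 and Tbx22 in the posterior mesenchyme. Signals pass between epithelium and mesenchyme, with Fgf10 made in the mesenchyme and Shh in the overlying epithelium.

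Levels are given as CPM, that is counts divided by library size after adjustment by the trimmed mean of M values (TMM), in the order of replicates 1, 2 and 3. Fold changes come from edgeR's quasi-likelihood test over all 12 libraries, and the call threshold was 0.05 on p-values adjusted across all tested genes by the Benjamini-Hochberg method. Total counts were 44.4 to 73.0 M in the 3 anterior and 45.9 to 50.2 M in the 3 posterior libraries under tamoxifen. In a principal component analysis of these 6 libraries the first component held 69.5% of the variance and separated the regions. Anterior replicate 2 and posterior replicate 1 were the least like the others of their groups. The chi-square per degree of freedom was at least 44.6 between anterior replicate 2 and its group mates, against 11.8 between those mates. It was at least 32.8 for posterior replicate 1, against 10.3. Between the regions 2846 genes were called, 17.8% of those tested. Of these, 1213 (7.6%) were higher and 1633 (10.2%) lower in the anterior palate. Without both libraries that stood apart, 2538 genes were called. The excess of posterior calls grew with the size of the difference: 371 genes were at least 2-fold higher and 708 at least 2-fold lower in the anterior palate, and at 8-fold the counts were 44 and 205. The balance of directions depended on the processing, because with a length and GC trend removed from each library 2209 genes were higher and 1762 lower.

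The 4 regional markers followed the labels in all 6 libraries. Shox2, which encodes a homeodomain factor of anterior shelf mesenchyme, stood at 404, 579 and 375 CPM in the anterior and at 22.9, 18.6 and 12.7 CPM in the posterior libraries. Msx1, without which palate and teeth fail to form, stood at 229, 177 and 249 CPM against 26.6, 22.9 and 13.47 CPM. In both genes each anterior library lay far above each posterior library. The fold differences were 25.04 for Shox2 (log2 4.65, SE 0.23, adjusted p = 3.4e-08) and 10.4 for Msx1 (log2 3.37, SE 0.35, adjusted p = 0.00012). Meox2, a homeobox gene of the posterior palate, stood at 9.76, 9.17 and 8.12 CPM in the anterior and at 125, 133 and 142 CPM in the posterior libraries. Tbx22, the T-box gene of X-linked cleft palate, stood at 5.93, 8.50 and 3.64 CPM against 36.5, 33.2 and 38.2 CPM. Neither gene overlapped between the regions, which held for 33.1% of all genes tested. Meox2 was 14.7-fold (log2 -3.88, SE 0.17, adjusted p = 7.8e-10) and Tbx22 5.97-fold (log2 -2.58, SE 0.25, adjusted p = 6.8e-06) higher in the posterior palate.

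**Figure D1:**
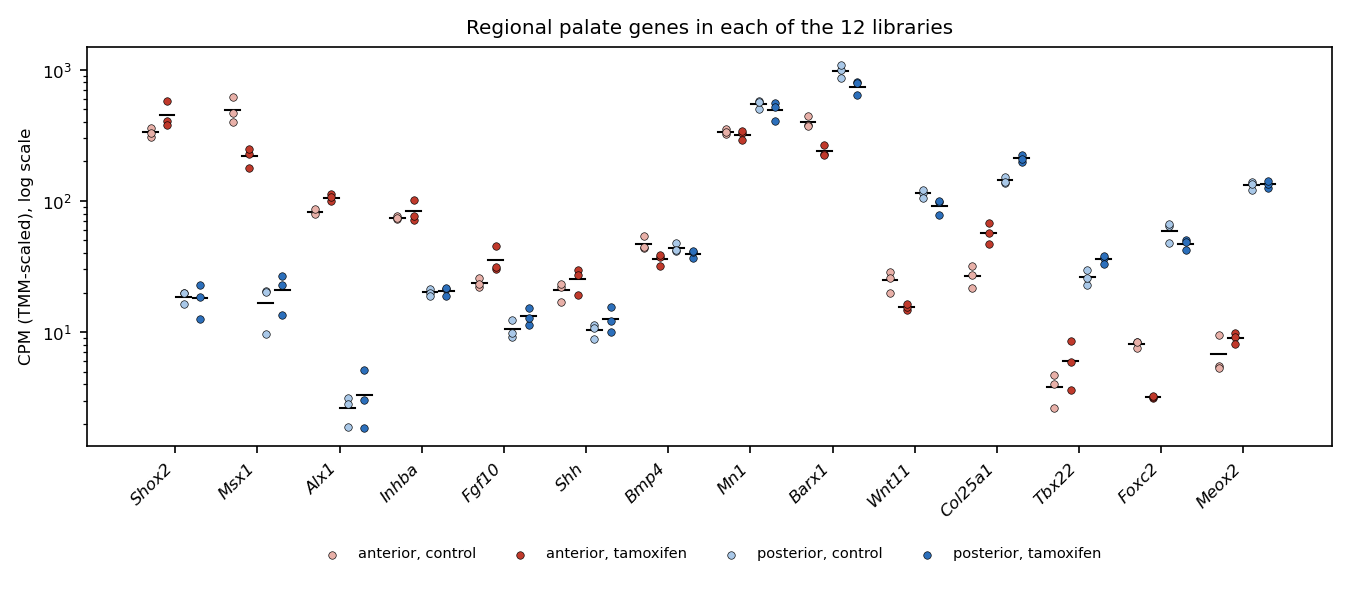
CPM on a log axis for 14 regional palate genes in the 3 libraries of each of the 4 groups, with a black bar at each group mean. Shox2, Msx1, Alx1, Inhba, Fgf10 and Shh are higher in the anterior libraries, Mn1, Barx1, Wnt11, Col25a1, Tbx22, Foxc2 and Meox2 in the posterior libraries, and the 2 regions overlap for Bmp4 under tamoxifen.

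Other genes of the anterior palate differed by smaller amounts, with the exception of Alx1. Of 9 anterior palate genes tested, 7 were higher and 0 lower in the anterior libraries, with a median log2 difference of 1.44 against 0.02 over all genes. Alx1, a homeobox gene of the frontonasal region, stood at 98.9, 112 and 107 CPM in the anterior and at 3.03, 5.10 and 1.85 CPM in the posterior libraries, a 31.8-fold difference (adjusted p = 1.2e-07). Inhba, which encodes a subunit of activin, stood at 71.5, 101 and 77.1 CPM against 21.2, 18.7 and 21.5 CPM and was 4.05-fold higher. Fgf10, the mesenchymal growth factor, stood at 30.1, 45.4 and 31.6 CPM against 15.3, 11.4 and 12.8 CPM and was 2.71-fold higher (adjusted p = 3.5e-06). The regions did not overlap for any of these genes, and for 7 of the 9 in all, against 33.1% of all genes tested. Anterior replicate 2 was the highest library for Shox2, Alx1, Inhba and Fgf10 but the lowest anterior library for Msx1. Shh was 2.02-fold higher (adjusted p = 0.0006).

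The BMP ligands of the anterior list gave no call. Bmp4, a growth factor of the palate mesenchyme and tooth germs, stood at 37.2, 31.6 and 38.7 CPM in the anterior and 36.6, 40.5 and 41.1 CPM in the posterior libraries, and the regions overlapped (log2 -0.14, SE 0.10, adjusted p = 0.40). Bmp2, chosen after its values were seen, stood at 41.2, 24.2 and 56.9 CPM against 44.2, 56.2 and 59.3 CPM (log2 -0.38, SE 0.24, adjusted p = 0.33). Without anterior replicate 3, its highest anterior library, Bmp2 was called lower in the anterior palate (log2 -0.70, adjusted p = 0.018).

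All 8 posterior palate genes were lower in the anterior libraries, with a median log2 difference of -2.02. Barx1, a homeobox gene of jaw and stomach mesenchyme, stood at 227, 264 and 225 CPM in the anterior and 635, 801 and 788 CPM in the posterior libraries, a 3.10-fold difference (adjusted p = 1.3e-08). Wnt11, a ligand of non-canonical Wnt signalling, stood at 14.7, 15.6 and 16.3 CPM against 77.7, 97.9 and 100.4 CPM and was 5.94-fold higher in the posterior palate. Col25a1, a transmembrane collagen, was 3.68-fold higher there. Mn1, a transcriptional coregulator needed for the posterior palate, differed least of these genes: it stood at 329, 290 and 341 CPM against 404, 556 and 517 CPM, a 1.54-fold difference (adjusted p = 0.00029). For none of the 8 did the regions overlap, whereas 33.1% of all genes tested had no overlap. The remaining members, named after their values were seen, were Meox1 (4.49-fold) and Pax9 (1.81-fold).

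The largest anterior excess among genes with at least 5 CPM belonged to Ambn, which encodes ameloblastin, a matrix protein of tooth enamel. It stood at 23.3, 22.8 and 24.2 CPM in the anterior and 0.605, 0.128 and 0.268 CPM in the posterior libraries, a 68.4-fold difference (adjusted p = 1.6e-10). Posterior replicate 1 was its highest posterior library, and without it the log2 difference went from 6.10 to 6.87. Behind Ambn and Alx1 came Six3, a homeobox gene of forebrain and eye, at 15.2, 14.2 and 11.4 CPM against 0.527, 0.468 and 0.625 CPM (25.1-fold). Pax3, a paired-box gene of neural crest and muscle precursors, stood at 15.8, 9.38 and 13.3 CPM against 0.957, 0.829 and 0.848 CPM (14.6-fold). All anterior values of these genes lay above all posterior values, because the ranking took only genes without overlap. Of all genes tested, 33.1% had no overlap. Enpp1, an enzyme that makes the mineralization inhibitor pyrophosphate, was 10.1-fold higher, Sp5, a target of Wnt signalling, 6.72-fold and the homeobox gene En1 6.37-fold. The noncoding RNAs Six3os1 (18.8-fold), Msx1os (8.99-fold) and Foxd2os (6.87-fold) complete the leading 12. Without posterior replicate 1 the log2 difference of Msx1os went from 3.17 to 3.83. Each lies beside or opposite the gene it is named for, and since the strand of counting is not given in the sources used here, their reads cannot be told apart from those of Six3, Msx1 and Foxd2.

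Most of the largest posterior differences were in genes of skeletal muscle that were close to 0 in the anterior palate. Lmod3, an actin nucleator of muscle thin filaments, had 0 counts in the 3 anterior libraries and 1154 in the posterior ones, so it was at least 441-fold higher in the posterior palate, taking a floor of 3 counts over the group. Tmem8c, the myoblast fusion protein myomaker, had 2 counts against 2277, a ratio of 1305 with a 95% counting interval of 361 to 10790. For Sln, the calcium pump inhibitor sarcolipin, the counts were 2 and 1032 (ratio 592, interval 163 to 4892). These intervals cover counting error only. Lmod3 and Mybph, which encode muscle proteins, are not in the skeletal muscle list described below, and neither are Crh, Nkx3-2 and Il17b. Crh, the hormone of the stress response, stood at 15.9, 6.25 and 8.99 CPM in the posterior libraries and had 3 counts in the anterior ones (ratio 578, interval 197 to 2803). Mybph, Actc1, Myh3, Myod1 and Chrng of this group encode muscle proteins. Nkx3-2, a homeobox gene of cartilage and gut, stood at 0.0404, 0 and 0.0444 CPM against 12.4, 12.7 and 10.2 CPM, and Pitx3, a homeobox gene of lens and muscle, at 0.135, 0 and 0.0444 CPM against 12.6, 18.8 and 12.5 CPM. The secreted cytokine gene Il17b stood below 0.2 CPM in every anterior library and between 6.09 and 8.89 CPM in the posterior ones.

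Homeobox genes outside the palate lists were called in both directions: of 59 tested, 22 were higher and 13 lower in the anterior palate, against the 7.6% and 10.2% of all genes. Prrx1, a homeobox gene of limb and face mesenchyme, stood at 1187, 1369 and 1206 CPM in the anterior and 611, 628 and 569 CPM in the posterior libraries (2.08-fold, adjusted p = 4.3e-08). Its 3 anterior values lay above its 3 posterior values. Pax6, an eye and forebrain gene, was also higher in the anterior palate, at 1.79, 1.16 and 2.00 CPM against 4 counts in the 3 posterior libraries. Emx2, a forebrain homeobox gene, stood at 0.444, 0.269 and 0.355 CPM against 9.57, 10.3 and 8.57 CPM and was 25.7-fold higher in the posterior palate, and Barx2 was 5.67-fold higher there. Of 39 Hox genes, which pattern the trunk and hindbrain, only 5 had enough counts to be tested. Hoxd8 was 2.05-fold higher anteriorly at under 3 CPM, a call that was lost without posterior replicate 1 (log2 0.86, adjusted p = 0.059). Hoxa2, at no more than 0.535 CPM in any of the 6 libraries, was lower anteriorly (log2 -2.63, adjusted p = 0.028), a call that was lost without anterior replicate 1 (adjusted p = 0.12) or posterior replicate 3 (adjusted p = 0.12).

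Forkhead and T-box factors leaned to the posterior side, with 7 higher and 12 lower in the anterior palate of 24 tested and a median log2 difference of -0.43. Foxc2, a forkhead gene of skeletal and vascular development, stood at 3.17, 3.22 and 3.26 CPM in the anterior and 42.0, 50.1 and 48.2 CPM in the posterior libraries, a 14.5-fold difference (adjusted p = 1.1e-11). Tbx15, a T-box gene of mesenchyme, was 4.16-fold and Foxp2 4.01-fold higher in the posterior palate. In the opposite direction Foxl2 was 2.73-fold higher anteriorly. Other transcription factors of the face mesenchyme divided evenly, 11 in each direction of 36 tested. Gata3 (4.89-fold), Tfap2a (3.12-fold), Tfap2c (2.42-fold) and Cited2 (1.86-fold) were higher in the anterior palate. Ebf2 (3.37-fold), Nr2f2 (2.59-fold), Nr2f1 (2.45-fold) and Ebf1 (2.18-fold) were higher in the posterior palate, the Nr2f genes encoding orphan nuclear receptors and the Ebf genes helix-loop-helix factors. Tcf21, a helix-loop-helix factor of branchial muscle chosen after its values were seen, had 0 anterior and 58 posterior counts, at least 22.2-fold higher in the posterior palate.

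Several close relatives were called on opposite sides. The 6 pairs given here were chosen after their values were seen, so they describe these data and are not a sample of gene families. Msx1 was higher anteriorly, whereas Msx2 stood at 5.62, 5.06 and 5.59 CPM in the anterior and 23.2, 35.0 and 34.0 CPM in the posterior libraries and was 5.66-fold higher posteriorly (adjusted p = 2.7e-09). Pax3 was higher anteriorly and Pax7, a marker of muscle precursors, 58.8-fold higher posteriorly, at 0.189, 0.134 and 0.0444 CPM against 7.64, 9.93 and 6.13 CPM. Foxd2 stood at 69.1, 50.0 and 70.3 CPM against 11.3, 8.36 and 10.5 CPM, 6.28-fold higher anteriorly, and Foxd1 at 63.4, 42.0 and 65.1 CPM against 239, 354 and 299 CPM, 5.23-fold higher posteriorly. Both genes were expressed in every library, and each was lower in all libraries of its low region than in any of its high region. Foxf1 was 2.59-fold higher anteriorly and Foxf2 1.42-fold higher posteriorly (adjusted p = 0.0098), a call that Foxf2 lost without posterior replicate 2 (log2 -0.43, adjusted p = 0.053) or 3 (log2 -0.41, adjusted p = 0.057). Fgf10 was higher anteriorly and Fgf7, another FGF of mesenchyme, 2.91-fold higher posteriorly. Among the D cyclins, which drive entry into the cell cycle, Ccnd2 stood at 1065, 1060 and 1076 CPM against 839, 801 and 812 CPM (1.31-fold, adjusted p = 0.0012), whereas Ccnd1 stood at 121, 114 and 146 CPM against 259, 283 and 284 CPM, 2.17-fold higher posteriorly.

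**Figure D2:**
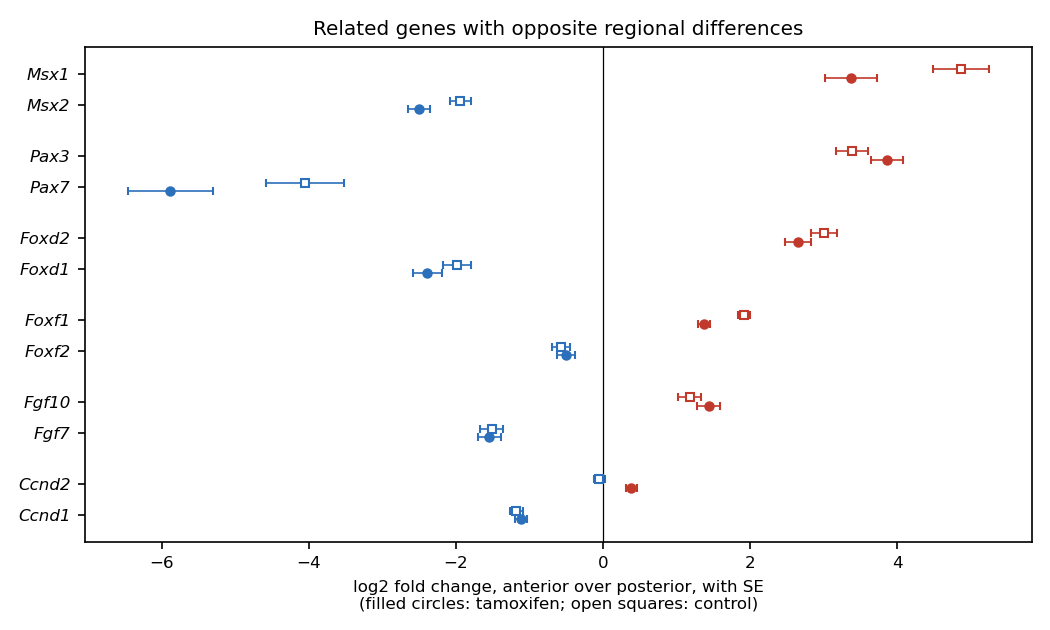
Log2 fold change, anterior over posterior, with its SE for 6 pairs of related genes, under tamoxifen (filled circles) and in controls (open squares). Under tamoxifen the first gene of each pair lies to the right of 0 and the second to the left. In controls Ccnd2 lies at -0.05 and the other genes keep their side.

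Skeletal muscle genes made up the most one-sided group. Of 40 tested, 39 were lower in the anterior palate and 0 higher, with a median log2 difference of -5.59. Of these genes 24 had a mean under 1 CPM in the anterior and 1 in the posterior libraries. Fewer muscle cells and less RNA per cell cannot be told apart in such tissue samples, here or in the cell type lists further on. Summed over the list, the anterior libraries held 135 to 158 CPM and the posterior libraries 1668 to 2229 CPM. Myod1, the factor that commits cells to muscle, stood at 0.323, 0.0448 and 0.177 CPM in the anterior and 48.0, 56.0 and 38.8 CPM in the posterior libraries, 230-fold higher (adjusted p = 2.9e-07). Without anterior replicate 1 its log2 difference went from -7.85 to -8.72. Myog, the factor of muscle differentiation, stood at 0.929, 1.23 and 1.02 CPM against 93.9, 103 and 64.2 CPM, and Myf5, the early muscle factor, at 0.0539, 0 and 0.0887 CPM against at least 2.63 CPM in each posterior library. Myf5 was chosen after its values were seen. Myod1 and Myf5 were near 0 in every anterior library, and Myog was low there, at no more than 1.23 CPM. Among the fibre proteins Tnni1, a slow troponin, stood at 0.579, 0.313 and 0.266 CPM against 48.9, 52.2 and 43.5 CPM (116-fold, adjusted p = 3.0e-11), and the intermediate filament gene Des at 2.79, 3.40 and 2.79 CPM against 56.9, 67.4 and 43.6 CPM (18.8-fold). Tnnt1 was 27.5-fold and Myl4 24.9-fold higher in the posterior palate. Chrng, the embryonic subunit of the muscle acetylcholine receptor, was 198-fold higher.

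The muscle genes did not vary alike among the anterior libraries. Myod1 was lowest in anterior replicate 2, yet several fibre genes, chosen after their values were seen, were highest there. Acta1, skeletal actin, stood at 0.418, 7.83 and 0.244 CPM in the 3 anterior and 88.2, 110.3 and 86.4 CPM in the posterior libraries. Tnnt3, a fast troponin, stood at 0.781, 5.30 and 1.35 CPM and Tnnc2 at 0.485, 3.38 and 0.532 CPM in the anterior libraries. Without anterior replicate 2 the log2 difference of Acta1 went from -5.17 to -8.07. Ckm, the muscle creatine kinase and the 1 member with no call, stood at 0.0269, 2.19 and 0 CPM against 0.332, 0.489 and 0.468 CPM. Its log2 difference was 0.73 with all libraries and -4.50 (adjusted p = 0.0013) without that replicate. The source of these fibre transcripts in anterior replicate 2 was not tested. The weakest call of the list, Mef2c, a factor that is also active outside muscle, was named after its values were seen. It stood at 87.9, 73.1 and 116 CPM against 118, 129 and 133 CPM (adjusted p = 0.040) and was called in 1 of 6 fits that left out a tamoxifen library, the fit without anterior replicate 3; the adjusted p of the others reached 0.14, without anterior replicate 2.

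Because 39 of these 40 genes were lower in the anterior palate, the stretch of 250 bases before each start site was read from RefSeq (mouse build GRCm38.p6; the counts themselves carry no coordinates and were made on mm9). It was searched for CAGCTG, a form of the E-box bound by muscle helix-loop-helix factors that reads the same on both strands. Windows of 4 receptor and fibre genes that hold it are printed 5′ to 3′ with the match in capitals.
Chrng, chr1:87205561-87205810, plus strand: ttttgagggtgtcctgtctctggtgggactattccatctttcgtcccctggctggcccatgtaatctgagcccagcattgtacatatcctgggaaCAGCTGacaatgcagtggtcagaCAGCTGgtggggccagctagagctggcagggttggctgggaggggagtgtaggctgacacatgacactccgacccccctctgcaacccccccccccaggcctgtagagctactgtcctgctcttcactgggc
Chrna1, chr2:73580339-73580588, minus strand: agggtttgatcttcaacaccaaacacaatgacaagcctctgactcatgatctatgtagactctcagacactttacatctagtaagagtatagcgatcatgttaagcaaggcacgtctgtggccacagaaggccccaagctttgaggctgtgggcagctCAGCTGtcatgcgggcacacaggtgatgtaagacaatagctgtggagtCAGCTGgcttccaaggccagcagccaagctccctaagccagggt
Tnni1, chr1:135799171-135799420, plus strand: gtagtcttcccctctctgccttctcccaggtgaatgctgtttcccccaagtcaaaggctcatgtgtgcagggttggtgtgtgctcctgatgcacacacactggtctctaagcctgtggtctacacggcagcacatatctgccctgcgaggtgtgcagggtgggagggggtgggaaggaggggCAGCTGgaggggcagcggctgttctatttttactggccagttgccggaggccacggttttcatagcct
Des, chr1:75360042-75360291, plus strand: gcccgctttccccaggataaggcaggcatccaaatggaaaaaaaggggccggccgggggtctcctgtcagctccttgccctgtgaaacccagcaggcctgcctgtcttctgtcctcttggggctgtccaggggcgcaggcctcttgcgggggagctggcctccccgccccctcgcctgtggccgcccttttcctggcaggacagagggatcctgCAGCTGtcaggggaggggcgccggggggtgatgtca

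Chrng and Chrna1 encode acetylcholine receptor subunits of the muscle membrane. Their windows hold 2 matches each, at 155 and 132 bases before the start for Chrng and at 92 and 44 bases for Chrna1. Tnni1 has 1 match at 68 bases in the window shown and Des 1 at 36 bases. Chrna1, chosen for its window, stood at 0.310, 0.515 and 0.222 CPM in the anterior and 18.4, 20.9 and 12.8 CPM in the posterior libraries. RefSeq windows were found for 33 of the 41 muscle genes, 38 windows in all, and 15 of these (39.5%) hold CAGCTG, against 13% of 32851 windows of all genes. In cartilage genes the share was 13.8% of 29 windows. The MEF2 consensus was in 10.5% of muscle windows against 2.92% of all, but also in 6.90% of cartilage windows and in 1 of 9 posterior and 1 of 5 anterior palate windows. The SRF CArG consensus was in 7.89% of muscle, 5.66% of Wnt pathway and 1.47% of all windows, with 7 motifs searched in 6 lists on both strands. Some matches of the looser E-box CANNTG are those of CAGCTG. A match in a window is a description of its letters and not evidence of binding.

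Cartilage genes were lower in the anterior palate for 15 of 22 tested and higher for 1, with a median log2 difference of -1.40. The 1 higher gene was not called without anterior replicate 1 or 3 or posterior replicate 1 or 3, and without anterior replicate 2 there were 2. Col2a1, the main collagen of cartilage, stood at 302, 250.2 and 234 CPM in the anterior and 1056, 1568 and 1457 CPM in the posterior libraries, a 5.19-fold difference (adjusted p = 2.5e-09). Sox9, the transcription factor of cartilage precursors, differed by only 1.58-fold, at 131, 110.1 and 123 CPM against 149.7, 220.4 and 206 CPM (adjusted p = 0.0026). The matrix genes Matn1 and Acan, chosen after their values were seen, were at 0.269, 0.246 and 0.266 CPM against 22.3, 39.9 and 25.4 CPM and at 2.42, 0.806 and 1.55 CPM against 27.7, 38.1 and 34.7 CPM. So Sox9 was present at over 100 CPM in both regions, whereas the matrix genes were lower in every anterior library by larger factors. Col9a3 (3.33-fold), Hapln1 (3.52-fold), a link protein of hyaluronan, and Col11a1 (2.09-fold) were also higher in the posterior palate.

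**Figure D3:**
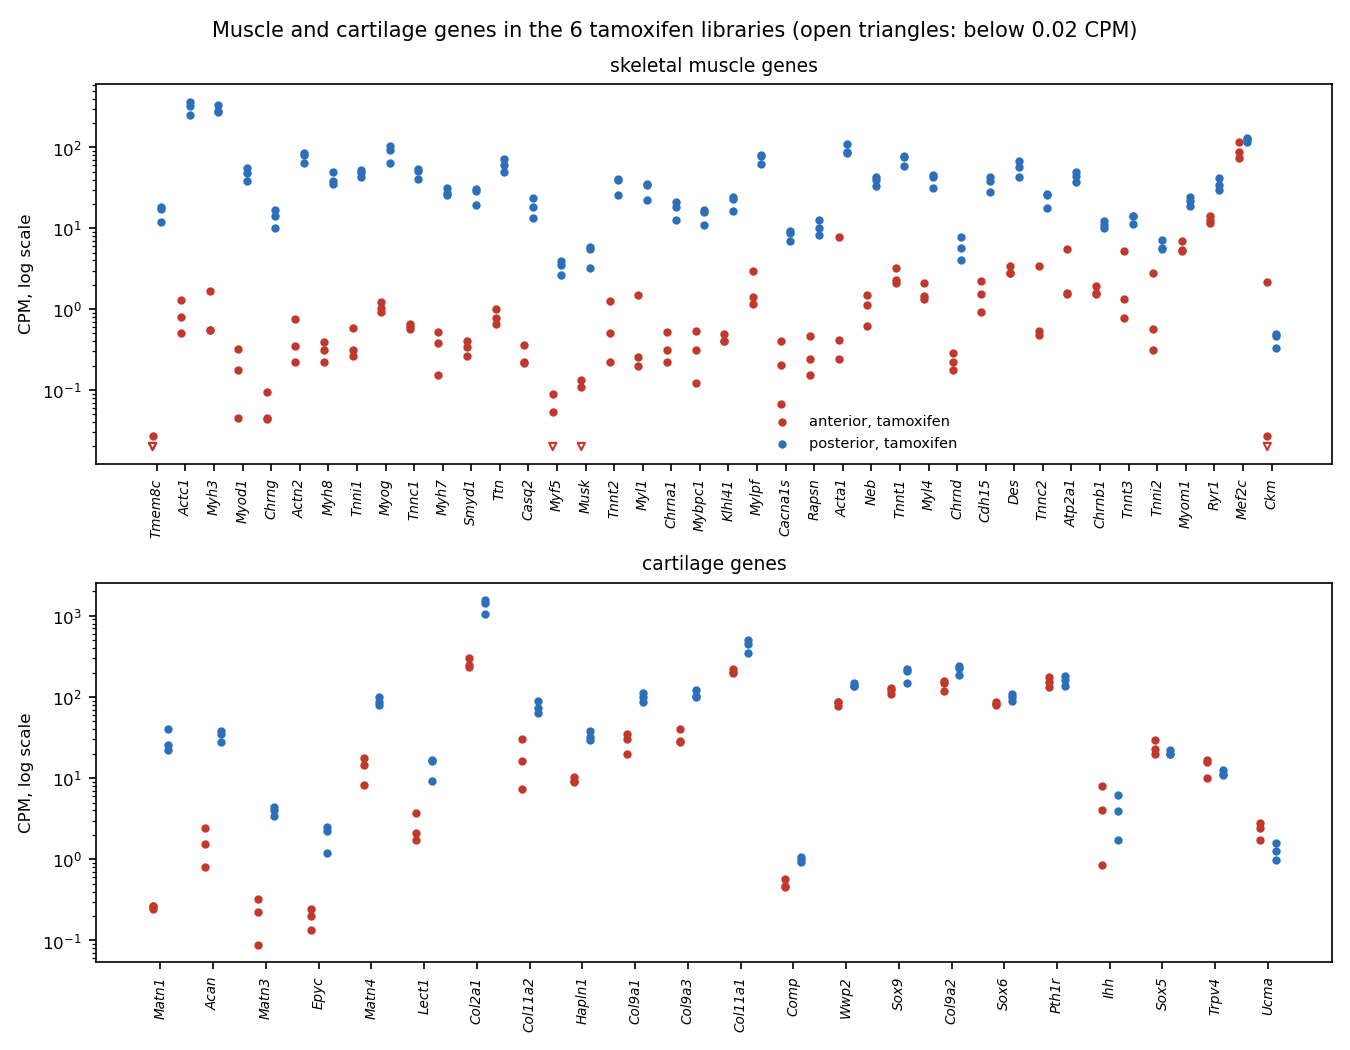
CPM on a log axis for each tested skeletal muscle gene (upper panel) and cartilage gene (lower panel) in the 6 tamoxifen libraries, ordered by the fitted difference, with values below 0.02 CPM drawn as open triangles. In 39 of 40 muscle genes the 3 anterior points lie below the 3 posterior points. Anterior replicate 2 gives the isolated high points of Acta1, Tnnc2, Tnnt3 and Ckm.

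Of 14 bone genes tested 4 were higher and 1 lower in the anterior palate, 35.7% called against 17.8% of all genes. The 1 lower call was lost without anterior replicate 2 or 3 or posterior replicate 1. Runx2, the transcription factor of bone-forming cells, stood at 215, 177 and 267 CPM in the anterior and 121, 156 and 164 CPM in the posterior libraries (1.49-fold, adjusted p = 0.0046), and Phex, an enzyme of mineralization, was 2.08-fold higher. The extracellular matrix list ran the other way, with 7 members higher and 33 lower of 68 tested and a median log2 difference of -0.33. The protease gene Adamts9 stood at 30.9, 34.4 and 32.5 CPM against 112, 114 and 105 CPM and was 3.38-fold higher in the posterior palate (adjusted p = 3.1e-10), and the collagen gene Col8a1 was 2.33-fold higher. Members higher anteriorly included the hyaluronan synthases Has2 (1.69-fold) and Has3 (1.94-fold), the integrin gene Itga8 (1.77-fold) and Frem1, a basement membrane protein (1.65-fold). The 2 hyaluronan synthases and the hyaluronan link protein Hapln1 were thus called in opposite directions. Of the 7 matrix genes higher anteriorly, 4 were still called without anterior replicate 1, and likewise 4 without posterior replicate 1 or 2. With the length and GC trend removed the list held 11 higher genes, including all 7.

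In Hedgehog signalling the ligand Shh and its receptor Ptch1 were higher in the anterior palate. Of 19 pathway genes tested, 10 were higher and 3 lower. Shh stood at 29.8, 27.0 and 19.3 CPM in the anterior and 15.4, 10.1 and 12.2 CPM in the posterior libraries. Ptch1, its receptor and a target of the pathway, stood at 283, 279 and 303 CPM against 134, 133 and 141 CPM (2.12-fold, adjusted p = 7.2e-07). For Ptch1 the regions were apart by more than the spread within either. For Shh they did not overlap, but the gap was smaller than the spread within either. Of the transcription factors Gli3 was 1.32-fold and Gli1 1.33-fold higher. Gli1, chosen after its values were seen, lost its call without posterior replicate 1 (log2 0.31, adjusted p = 0.055). The co-receptor gene Boc was 1.51-fold higher in the posterior palate. Foxf1 and Foxd2, described above, are known targets in the face. Foxf2, also described above and a member of this list, was 1.42-fold higher in the posterior palate. Hhip, a Hedgehog-binding inhibitor that the pathway induces, was 1.45-fold higher in the posterior palate (adjusted p = 0.016), but it was not called without anterior replicate 1 or 2 or posterior replicate 3 (adjusted p up to 0.096). Without posterior replicate 3, 1 of the 3 genes lower anteriorly was called.

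Wnt signalling was divided between the regions, 16 members higher and 15 lower in the anterior palate of 61 tested, with a median log2 difference of 0.07. Ligands stood on both sides: Wnt5a, of the non-canonical branch, was at 244, 251 and 246 CPM in the anterior and 73.4, 81.9 and 85.4 CPM in the posterior libraries (3.08-fold, adjusted p = 1.7e-10), and Wnt2 was 4.24-fold higher anteriorly, whereas Wnt11 was higher posteriorly. Wnt5a varied little among the 3 libraries of either region. Rspo1, which enhances the signal, stood at 71.1, 60.8 and 80.6 CPM against 21.4, 23.6 and 26.6 CPM (2.97-fold). Inhibitors were split as well, with Frzb, which binds Wnt ligands, 2.42-fold higher anteriorly, and Apcdd1 (2.70-fold) and Nkd2 (2.22-fold) higher posteriorly. The receptor gene Fzd8 was 2.15-fold higher posteriorly.

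BMP and TGF-beta genes leaned to the posterior palate, 23 of 57 against 4 higher anteriorly. Tgfb2, a ligand of palate mesenchyme, stood at 64.6, 67.1 and 61.3 CPM in the anterior and 132, 153 and 133 CPM in the posterior libraries (2.17-fold, adjusted p = 9.3e-09), and the TGF-beta induced matrix gene Tgfbi was 2.47-fold higher. Among secreted antagonists, Grem1, which binds BMPs, stood at 2.21, 2.04 and 3.15 CPM against 9.16, 11.6 and 10.8 CPM and was 4.28-fold higher in the posterior palate. Fst, which binds activin, was 1.90-fold higher in the anterior palate, as was Inhba. The other 2 members higher anteriorly were Bmp6 (2.69-fold) and the pseudoreceptor gene Bambi (1.44-fold). With the length and GC trend removed 7 members were higher, and 6 without anterior replicate 2.

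FGF genes showed 7 members higher and 11 lower of 38 tested. Besides Fgf10, the targets Etv4 (2.16-fold) and Etv5 (1.41-fold), transcription factors induced by FGF, were higher in the anterior palate, as was the low ligand Fgf20 at 0.471, 0.537 and 0.776 CPM against 0.117, 0.0425 and 0.0892 CPM. Fgfr4, the receptor of muscle precursors, stood at 2.71, 1.63 and 2.20 CPM against 19.8, 25.7 and 18.9 CPM and was 9.71-fold higher in the posterior palate (adjusted p = 5.0e-10). Fgf18 was 2.32-fold higher there. Fgf5 had 2 anterior and 366 posterior counts (ratio 210, counting interval 57.7 to 1739). Fgf6 and Fgf4, chosen after their values were seen, had 0 anterior counts against 68 and 44, and so were at least 26.0-fold and 16.8-fold higher posteriorly. With the length and GC trend removed 11 members were higher in the anterior palate.

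Genes of retinoic acid metabolism were higher anteriorly for 8 of 20 tested and lower for 2. Cyp26b1, an enzyme that degrades retinoic acid, stood at 238, 261 and 283 CPM in the anterior and 87.6, 107 and 104 CPM in the posterior libraries (2.62-fold, adjusted p = 7.9e-09), and Cyp26c1 was 3.84-fold higher. Stra6, which carries retinol into cells, was 2.78-fold and the synthesizing enzyme Aldh1a1 3.24-fold higher. Degrading and synthesizing enzymes were thus called on the same side. In the opposite direction the nuclear receptor Rxrg, at 0.687, 1.21 and 1.46 CPM against at least 8.12 CPM in each posterior library, was 9.13-fold higher posteriorly, and Rbp4 2.20-fold. In the Notch pathway 4 of 22 were higher and 3 lower, 31.8% called against 17.8% of all genes. Higher were, among others, Jag1 (1.46-fold), Hey1 (1.67-fold) and Nrarp (1.36-fold). Dlk1, a noncanonical ligand, stood at 450, 324 and 463 CPM against 1157, 1573 and 1482 CPM and was 3.40-fold higher posteriorly (adjusted p = 9.4e-08), and Hes6 was 1.81-fold higher posteriorly. Hey2, a relative of Hey1, was 1.65-fold higher posteriorly (adjusted p = 0.013), a call that was lost without anterior replicate 1 (adjusted p = 0.072) or posterior replicate 3 (adjusted p = 0.067).

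Axon guidance genes were called on both sides, 12 higher and 14 lower of 57 tested. Sema3e, a repellent for axons and vessels, stood at 61.1, 63.3 and 60.8 CPM in the anterior and 13.6, 16.2 and 14.8 CPM in the posterior libraries (4.16-fold, adjusted p = 1.1e-09). The ligand Slit2 was 2.32-fold and the semaphorin receptor Nrp1 1.60-fold higher in the anterior palate. Ntn1, netrin, stood at 80.3, 66.3 and 67.3 CPM against 205, 214.5 and 197 CPM and was 2.88-fold higher in the posterior palate, as were Efnb2 (2.26-fold) and Sema5b (3.80-fold). With the length and GC trend removed 18 members were higher anteriorly.

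Epithelial genes were higher in the anterior palate for 18 of 34 tested and lower for 0, by 1.31-fold to 2.84-fold, with a median log2 difference of 0.41. Trp63, the transcription factor of stratified epithelium, stood at 87.2, 88.2 and 73.9 CPM in the anterior and 45.6, 35.6 and 45.5 CPM in the posterior libraries (1.97-fold, adjusted p = 5.5e-06). Krt14, a keratin of basal cells, was 1.96-fold, Lamb3 2.04-fold and the desmosome gene Dsc3 2.84-fold higher. The defining marker Epcam was 1.37-fold higher (adjusted p = 0.0088), without anterior replicate 1 or posterior replicate 2 not called (adjusted p up to 0.071). The summed list held 2176 to 2757 CPM in the anterior and 1526 to 1975 CPM in the posterior libraries. Shh, which is made by the epithelium in the palate, moved with it, and the part of the epithelial share in its difference was not tested. The count was 11 without anterior replicate 1 and 11 without posterior replicate 2.

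Markers of forebrain, eye and olfactory tissue were higher anteriorly for 6 of 12 tested and lower for 1, Emx2, with 2 lower without posterior replicate 1. Sox2, a factor of neural and oral epithelial progenitors, stood at 175, 183 and 118 CPM in the anterior and 85.8, 68.1 and 78.4 CPM in the posterior libraries (2.05-fold). Fezf2, a forebrain gene chosen after its values were seen, stood at 0.795, 0.0448 and 2.22 CPM in the anterior libraries and had 0 posterior counts, so it was at least 46.8-fold higher in the anterior palate. Its anterior values were spread more widely than those of Six3. The summed list held 152 to 214 CPM against 94.5 to 114 CPM, and in every library most of it was Sox2.

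In neuronal genes 4 of 20 were lower in the anterior palate and 1 higher. The neurofilament genes Nefm (3.52-fold) and Nefl (2.81-fold) and the growth cone gene Gap43 (1.47-fold) were higher posteriorly, and Rbfox3, a nuclear protein of neurons, was 3.92-fold higher anteriorly. Without anterior replicate 3, 7 neuronal genes were lower. Schwann and glial genes had 5 lower and 1 higher of 13 (46.15% called). Ngfr was 1.44-fold and S100b 2.63-fold higher posteriorly, and Gfra3 2.42-fold higher anteriorly. The 5 became 3 without anterior replicate 2 and 2 without both libraries that stood apart. Acta2, smooth muscle actin, stood at 26.5, 20.3 and 33.7 CPM in the anterior and 163, 176 and 128 CPM in the posterior libraries, 5.80-fold higher posteriorly (adjusted p = 4.1e-08). It is also made in early skeletal muscle. Of 15 smooth muscle and pericyte genes 3 were lower and 1 higher (26.7% called), among them Smtn at 1.44-fold higher posteriorly. Without posterior replicate 1, 5 were lower, and without anterior replicate 1 or 3 or posterior replicate 3, 0 were higher.

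Vessel, blood and leukocyte genes were called at or below the share of all genes. Of 21 endothelial genes 1 was higher and 2 lower, with Vwf, a clotting factor of endothelium, 1.79-fold higher anteriorly. Without anterior replicate 2 or posterior replicate 2 or 3, 1 was lower. Of 20 macrophage and leukocyte genes 2 were higher, Itgam (1.95-fold) and Lyz2 (1.60-fold). Without anterior replicate 2 there were 4. Neither of the 2 was called without anterior replicate 1 (adjusted p = 0.16 and 0.14) or posterior replicate 2 (0.12 and 0.16), nor Itgam without posterior replicate 3 (0.061) and Lyz2 without anterior replicate 3 (0.14) or posterior replicate 1 (0.087). None of 10 erythroid, 40 ribosomal protein or 32 oxidative phosphorylation genes was called, and the ribosomal gene Rpl4 stood at 1272, 1402 and 1248 CPM against 1241, 1192 and 1214 CPM. Without anterior replicate 3, 1 erythroid and 1 ribosomal protein gene were called higher. With the length and GC trend removed 5 ribosomal protein genes were higher anteriorly.

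The list that joins D cyclins, growth genes and mitotic genes had calls in both directions, 31.1% of its members against 17.8% of all genes. Of 45 tested, 9 were lower in the anterior palate, among them the cell cycle inhibitor Cdkn1a at 9.74, 8.08 and 12.2 CPM against 37.6, 35.8 and 34.2 CPM (3.58-fold higher posteriorly, adjusted p = 1.6e-08). Igfbp3 (2.13-fold) and Igf1 (1.97-fold), of the insulin-like growth factor system, were also higher posteriorly. The mitotic genes named here, Cenpf and Mki67, were both called on the anterior side. Besides Ccnd2, 4 genes were higher anteriorly, including the kinetochore gene Cenpf (1.34-fold) and Mki67 (1.23-fold). Mki67, the usual marker of dividing cells, stood at 427, 439 and 411 CPM against 344, 362 and 334 CPM. The regions did not overlap, but its adjusted p of 0.022 rose to between 0.056 and 0.091 without anterior replicate 1 or 2 or posterior replicate 1 or 3. Of the 5 higher genes, 2 were still called without anterior replicate 1 or posterior replicate 1 or 3, 3 without anterior replicate 2 or posterior replicate 2, and 1 without both libraries that stood apart. The list held 9 higher genes with the length and GC trend removed, 4 of them among these 5.

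Oestrogen receptors, the targets of tamoxifen, were low. Esr1 stood at 0.134 to 0.195 CPM in the 6 libraries and was too low to be tested. Esr2 (adjusted p = 0.16) and Pgr, the progesterone receptor (adjusted p = 0.19), gave no call. Of 18 oestrogen receptor and responsive genes tested, 2 were higher and 6 lower in the anterior palate, 44.4% called against 17.8% of all genes. Greb1, which oestrogen induces in other tissues, stood at 26.9, 32.7 and 26.4 CPM against 15.8, 19.3 and 18.5 CPM (1.60-fold, adjusted p = 0.00017), and Cxcl12 was 1.44-fold higher. The receptor coactivator Ncoa1 was 1.45-fold and the membrane receptor Gper1 2.03-fold higher posteriorly. Ccnd1 (2.17-fold, adjusted p = 4.3e-08) and Ctsd (1.35-fold, adjusted p = 0.0033), also members of this list, were higher posteriorly too.

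**Figure D4:**
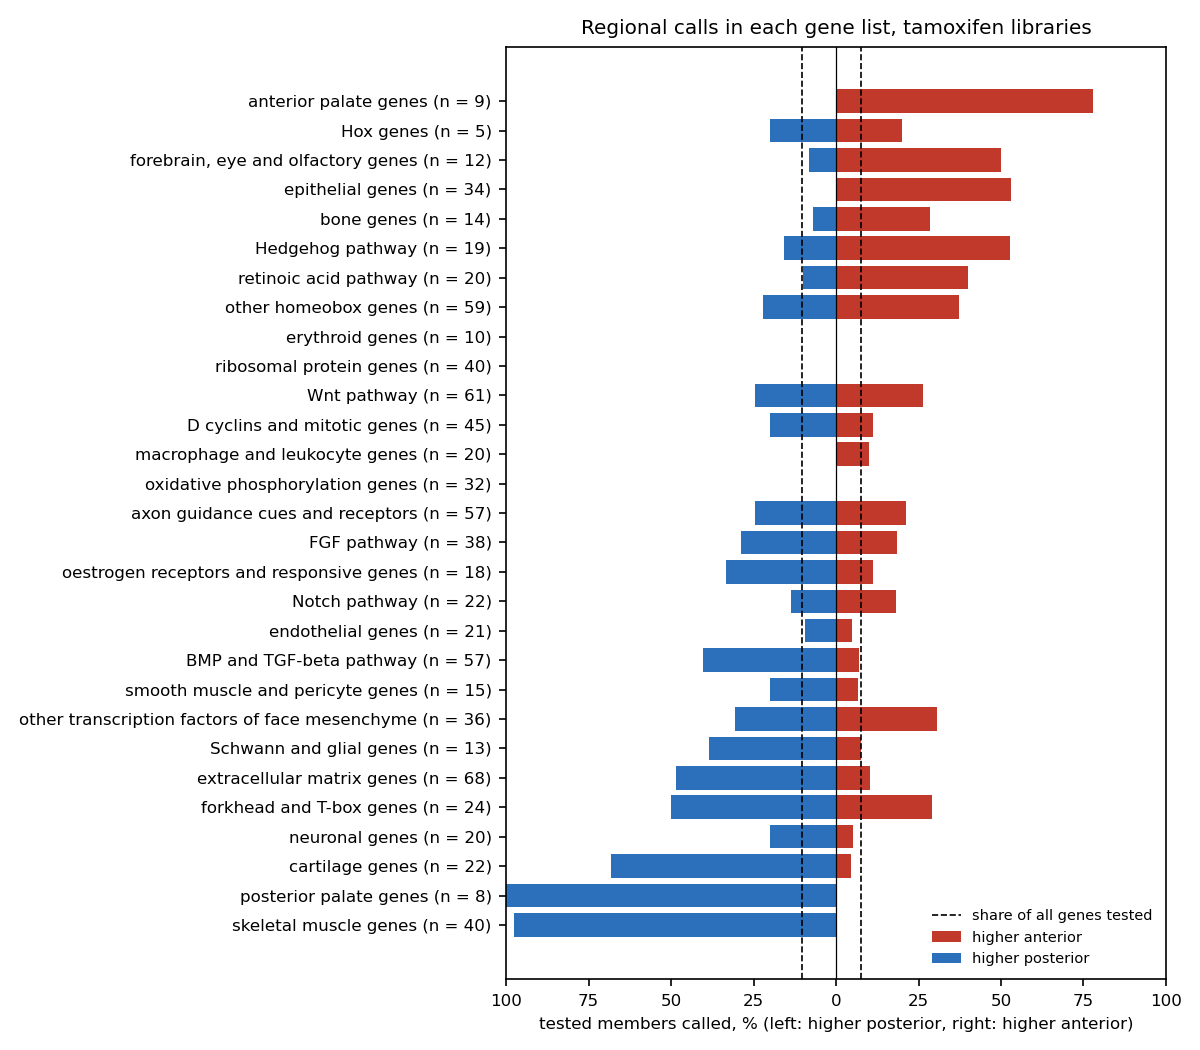
Share of the tested members of each of 29 gene lists called higher in the posterior palate (left, blue) or the anterior palate (right, red) under tamoxifen, ordered by the list's median difference. Dashed lines mark the shares of all genes tested, 10.2% and 7.6%. Skeletal muscle, posterior palate and cartilage genes extend farthest to the left, anterior palate, epithelial and Hedgehog genes farthest to the right.

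The regional difference under tamoxifen was then set beside that in controls, to ask where the treated palate departs from the untreated one. In controls 3717 genes (23.3%) were called. Of the genes called under tamoxifen, 1984 were also called in controls in the same direction, 69.7% of the tamoxifen calls and 53.4% of the control calls. Across the 15958 genes, which are not independent replicates, the 2 regional fold changes had a Pearson correlation of 0.84 and a Spearman correlation of 0.57. Shox2 had a log2 difference of 4.65 under tamoxifen and 4.15 in controls, Msx1 3.37 and 4.87, Meox2 -3.88 and -4.27, and Tbx22 -2.58 and -2.79. Skeletal muscle genes were lower anteriorly for 39 of 40 and cartilage genes for 15 of 22 in both treatments. The muscle list's median log2 difference was -5.59 under tamoxifen and -4.55 in controls.

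The difference between the regional effects, tested directly, gave 0 calls with edgeR's quasi-likelihood test, with a smallest adjusted p of 0.081. At an unadjusted p under 0.05 there were 2110 genes (13.2%), limma-voom gave 0 calls and DESeq2 170. A gene called in only 1 treatment is therefore not shown to differ between them. The smallest p-values belonged to genes of both directions. Wnt5a had a log2 difference of 1.62 under tamoxifen and 1.03 in controls (adjusted p = 0.081 for the difference, edgeR). Ptch1 had 1.09 and 0.41 (adjusted p = 0.17). Both genes were thus higher anteriorly in each treatment. Foxc2 (-3.86 and -2.87) and the secreted protein gene Cthrc1 (-2.32 and -1.64) were lower anteriorly in both, each with an adjusted p of 0.081. For Naaa, a lipid hydrolase, the values were 0.72 and 1.68, and for the proteoglycan gene Spock1 0.30 and 1.91, with the same adjusted p. Spock1 gave no call under tamoxifen with all libraries, but did without posterior replicate 1 (log2 0.55, adjusted p = 0.0499). Hey1 (0.74 and 1.44) and Tfap2b (0.26 and 1.44) had smaller values under tamoxifen, and the muscle gene Trim72 went from -2.76 in controls to -4.83, with adjusted p-values between 0.096 and 0.13. Stard4, a sterol carrier, stood at 0.14 under tamoxifen and -0.63 in controls (adjusted p = 0.16).

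In the muscle list 34 of 40 members had a more negative log2 difference under tamoxifen than in controls, as had 8228 of all 15958 genes. The median difference of effects was -0.94 against -0.01 over all genes. In edgeR's test 19 members had an unadjusted p under 0.05, against 13.2% of all genes. In controls anterior replicate 1 was the highest anterior library for 30 of the 40 genes. Without it 30 members had a more negative value under tamoxifen, the median was -0.55 and 11 had such a p. Without anterior replicate 2 under tamoxifen these values were 39, -1.07 and 25. Posterior replicate 2 was the highest posterior tamoxifen library for 31 genes, and without it they were 34, -0.80 and 15. Cartilage genes had a median of 0.02, with 3 of 22 under that p. Of the 40 muscle genes 24 had an anterior mean under 1 CPM under tamoxifen, so their log2 values rest on few counts. Summed over the muscle list, the anterior libraries held 135 to 158 CPM under tamoxifen and 99.5 to 143 CPM in controls. The posterior libraries held 1668 to 2229 and 1341 to 1535 CPM. The summed anterior level was thus not lower under tamoxifen. However, a large part of it in each anterior tamoxifen library was Mef2c, which is also active outside muscle. The sum therefore does not show how the other members changed, which was not tested. The difference of effects also followed gene properties: over 15847 genes its Spearman correlation was 0.36 with transcript length and -0.42 with GC content, whereas for the regional difference under tamoxifen these were 0.0039 and -0.18. The part of length and GC content in the difference of effects was not tested gene by gene. In all, 6 genes were called in opposite directions in the 2 treatments, all named here after their values were seen. Exoc2, Gfod1, Hecw2 and Shroom4 were higher anteriorly under tamoxifen and lower in controls, by at most 0.56 on the log2 scale in either. Sfrp5, a Wnt inhibitor, had log2 differences of -0.94 and 1.12, and Adamdec1 -2.02 and 1.81, both at under 2.5 CPM in every group mean. Each of the 6 lost its call under tamoxifen in 3 to 6 of the 6 fits that left out 1 tamoxifen library. Without posterior replicate 1, 5 of them were not called, Exoc2 being the exception.

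**Figure D5:**
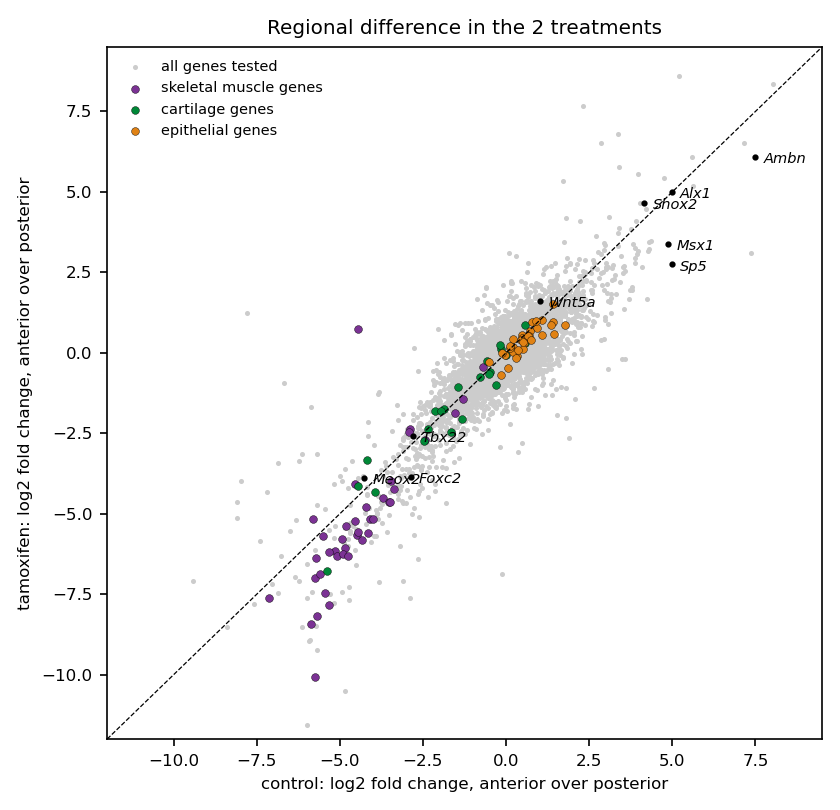
Log2 fold change, anterior over posterior, in controls (horizontal axis) and under tamoxifen (vertical axis) for the 15958 genes tested, with skeletal muscle, cartilage and epithelial genes coloured and 9 genes labelled. The dashed line marks equal values. Most muscle genes lie below it, and Msx1 and Sp5 lie below it on the anterior side.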

How the data were processed

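RNA-seq libraries from 12 palate samples were used, 3 per group, and the labels' titles gave each group and replicate number. The deposited values are read counts per gene symbol. The submitters' processing notes name HISAT2, StringTie and the mouse build mm9 as used by the authors to make these counts. The annotation, the program that counted, the strand setting and all versions were not given in the sources used here. Between 57.1% and 60.1% of the counts from 1 to 100 are even, a share measured here with no statement of its cause.

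Genes were filtered with filterByExpr, libraries scaled by TMM, and a robust edgeR quasi-likelihood model with 1 mean per group fitted to all 12 libraries (edgeR 4.0.16, limma 3.58.1 and DESeq2 1.42.0 in R 4.3.3). This left 15958 of 24391 symbols and 8 residual degrees of freedom. Contrasts gave the regional difference under tamoxifen, in controls, and the difference between them, each with Benjamini-Hochberg adjustment over all tested genes at 0.05. Exact permutation of 3 against 3 libraries cannot give a two-sided p below 0.10, so none is given. The model code was tested on simulated data.

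The members and the 29 gene lists were chosen with earlier results of these data known. Named genes were 9 fixed regional genes, the 12 largest differences in each direction without overlap and with a higher group mean of at least 5 CPM, up to 4 called members per list and direction by adjusted p (or, with none called, the most abundant member), and up to 8 genes per direction for the difference between treatments. Genes outside this rule were chosen after their values were seen: Acan, Acta1, Bmp2, Chrna1, Ckm, Fezf2, Fgf4, Fgf6, Gli1, Gli3, Matn1, Mef2c, Meox1, Myf5, Myog, Pax7, Pax9, Tcf21, Tnnc2, Tnnt3, the markers Sox9 and Epcam, the receptors Esr1, Esr2 and Pgr, and the genes called in opposite directions. A fold against a group with 0 counts was computed as a bound from 3 counts over the group. Ratios with 1 to 3 counts carry an exact 95% counting interval. Promoter windows came from RefSeq (GRCm38.p6). Alternatives were other scalings, filters, thresholds and tools, a replicate block, removal of a length and GC trend, and leaving out each library. Leaving out both libraries that stood apart was chosen after seeing the data. Some members are not reported here.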

Additional observations from a re-analysis of the deposited data

How the results depend on the processing

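The regional count under tamoxifen, 2846 genes, fell to 1839 (723 higher anteriorly) at an adjusted p under 0.01 and to 1707 (667 higher, 1040 lower) with a 1.5-fold minimum. With the length and GC trend removed 2209 were higher, and 2103 when the replicate block was added, so that 55.6% and 54.6% of calls were higher against 42.6%. Of the 2846 calls 2763 kept their direction with the trend removed and 0 reversed. The replicate block alone gave 2642 calls, 2547 of them shared. Same-numbered anterior and posterior tamoxifen libraries had correlations of 0.15, -0.015 and 0.14, and other pairs from -0.24 to 0.12. With 3 libraries per group these values cannot decide whether the numbers pair the libraries. The labels give no pairing, so the main fit took none. Leaving out single libraries gave 2090 to 2853 calls. In controls the 3717 calls became 2194 (873 higher, 1321 lower) at 0.01 and 1987 (903 higher, 1084 lower) with the fold minimum, and the higher count ranged from 1010 to 1432 without single libraries. For the difference between treatments, DESeq2 gave 170 genes (92 higher, 78 lower). The replicate block with the trend removed gave 1 (1 lower), and leaving out single libraries 0 to 6 (0 to 6 lower). The cause was not tested. Ckm, at 0.73 on the log2 scale, went to -0.79 with the replicate block, -0.68 with block and trend, -2.36 with limma-voom, -4.65 without both libraries that stood apart, and from -4.50 to 1.32 without single libraries. Of 192 named genes or members, 179 to 187 kept direction and call when a single tamoxifen library was left out. With counts thinned to the lowest library total, 2799 genes were called under tamoxifen, and precision rests on 3 libraries per group.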
